A study of Mus musculus with 8 samples.

Results

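Adgrf1, Pcp4l1, Slc26a4 and Slc12a1 are 4 genes whose transcripts were much lower in mouse livers labelled deficient for Bcl6 than in wild-type livers, in both sexes or in males. They were picked for those large falls in earlier results of the same arrays, from 22911 genes with a symbol on the array, so their knockout against wild-type differences below are a description and carry no test. The rule that picked them had no numeric threshold. All 4 were matched to probes, 5 probes in all, and all 4 were among the 26551 genes and unnamed transcripts that could be tested.

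RNA from whole liver was hybridised to 8 one-colour Agilent arrays, 1 array per sample. There were 4 groups, with n = 2 arrays each: male knockout, male wild type, female knockout and female wild type. The mice were 10 to 11 weeks old, and the labels call the knockout specific to the liver. The sources used here do not give the promoter that drives the deletion or the mouse strain, nor do they say that arrays of a group hold different animals, so all errors below measure only the spread between these arrays. All 8 arrays lay on 1 slide, with females in row 1 and males in row 2, so sex and slide row cannot be told apart, while genotypes were mixed within each row. Between 33677 and 36459 of 59305 spots were well above background on an array. Correlations across genes were 0.987 to 0.993 between the arrays of a group, and 0.960 to 0.975 between a knockout and a wild-type array. All 16 hepatocyte markers were well above background in each of the 4 groups.

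Bcl6, a zinc-finger protein that represses transcription, is known above all from germinal centre B cells. In mouse liver it is known to be more abundant in males and to bind near sites of the growth hormone-activated factor STAT5, and liver transcript levels differ widely between the sexes under the pulse pattern of growth hormone. Adgrf1 is an adhesion G protein-coupled receptor, also called GPR110, and Pcp4l1 is a small protein with a calmodulin-binding type IQ motif, akin to the Purkinje cell protein Pcp4. Slc26a4 (pendrin) exchanges chloride for iodide or bicarbonate in thyroid, inner ear and kidney intercalated cells, and Slc12a1 is the sodium, potassium and chloride cotransporter of the thick ascending limb of the kidney, the target of loop diuretics.

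The 1 probe for Bcl6 itself gave processed signals of 3034 and 2160 on the male knockout arrays, against 2436 and 956 on the male wild-type arrays. In females the signals were 440 and 3110 in knockout and 1161 and 286 in wild type. On the log2 scale used below, knockout minus wild type was 0.81 ± 1.06 in males (SE, n = 2 a group; adjusted p = 0.676, limma) and 1.11 ± 1.06 in females (0.556). This probe was therefore not lower in the knockout groups, and no source used here places it inside or outside the deleted stretch, so it does not check the genotypes. Knockout and wild type stand below for the groups as labelled, in every direction that is drawn.

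The 250 bases before each gene's start are shown first, because all 4 genes were lower in knockout males. They are RefSeq's, build GRCm38.p6, on the strand of the gene, 5′ to 3′. The windows are chr17:43270097-43270346 (plus strand) for Adgrf1, chr1:171196269-171196518 (minus strand) for Pcp4l1, chr12:31559985-31560234 (minus strand) for Slc26a4 and chr2:125152350-125152599 (plus strand) for Slc12a1. Capitals mark matches to the searched motifs.
Adgrf1: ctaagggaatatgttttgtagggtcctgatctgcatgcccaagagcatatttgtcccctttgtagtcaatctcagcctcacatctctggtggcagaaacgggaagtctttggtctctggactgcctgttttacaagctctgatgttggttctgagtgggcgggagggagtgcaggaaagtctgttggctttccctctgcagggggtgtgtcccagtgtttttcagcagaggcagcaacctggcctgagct
Pcp4l1: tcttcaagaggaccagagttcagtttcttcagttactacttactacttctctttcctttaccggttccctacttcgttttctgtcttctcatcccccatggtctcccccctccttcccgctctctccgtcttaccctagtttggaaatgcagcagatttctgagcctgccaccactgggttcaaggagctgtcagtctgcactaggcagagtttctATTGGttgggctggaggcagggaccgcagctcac
Slc26a4: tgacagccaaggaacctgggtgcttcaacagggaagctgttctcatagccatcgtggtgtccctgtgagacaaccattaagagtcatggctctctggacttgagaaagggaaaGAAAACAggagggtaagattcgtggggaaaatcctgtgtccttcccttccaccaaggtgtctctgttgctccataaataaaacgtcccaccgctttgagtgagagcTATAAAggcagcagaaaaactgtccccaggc
Slc12a1: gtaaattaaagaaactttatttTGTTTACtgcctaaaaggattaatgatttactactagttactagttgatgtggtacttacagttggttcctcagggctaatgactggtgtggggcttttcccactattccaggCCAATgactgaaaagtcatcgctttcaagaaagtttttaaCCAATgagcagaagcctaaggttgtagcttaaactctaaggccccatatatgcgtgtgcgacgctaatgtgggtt

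Both strands of each window were searched for 7 motifs. They were the palindrome TTCNNNGAA that STAT factors bind, its Bcl6-type form TTCCTAGAA, the TATA box TATAAA, the CCAAT box CCAAT, the HNF4-type CAAAGTCCA, the forkhead-type TGTTTNC and the C/EBP-type TTGCNNAA. TTCCTAGAA is one of the words that TTCNNNGAA covers. TTCNNNGAA was in 0 of the 4 windows, and in 7.02% of the 32851 promoter windows of the same length. TTCCTAGAA was in 0.347% of all windows, CAAAGTCCA in 0.384% and TTGCNNAA in 9.56%, and none of these was in the 4 windows. Slc26a4 had TATAAA at -31 to -26, counted from the gene's start, a word present in 12.4% of all windows. CCAAT, present in 33.8% of all windows, was on the opposite strand of Pcp4l1 at -34 to -30 and on the gene's own strand of Slc12a1 at -115 to -111 and -75 to -71. TGTTTNC, present in 17.8% of all windows, was on the opposite strand of Slc26a4 at -137 to -131 and on the gene's own strand of Slc12a1 at -228 to -222. Adgrf1 held none of the 7. No searched word was in more than 2 of the 4 windows. GC content was 52.0% in Adgrf1, 51.6% in Pcp4l1, 49.6% in Slc26a4 and 39.6% in Slc12a1, with a median of 52.4% over all windows. A match is a run of letters, not a bound site, and a missing word says nothing of a factor's binding here or elsewhere.

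Adgrf1, the receptor, had the lowest signals in female knockout livers. Its processed signal, which is the spot's brightness after background subtraction, was 14.1 and 5.19 on the male knockout arrays and 226 and 199 on the male wild-type arrays. It was 1.62 and 1.43 on the female knockout arrays, against 92.6 and 257 on the female wild-type arrays. All 4 wild-type arrays lay above all 4 knockout arrays, and 3 of the 4 knockout arrays were not well above background, the exception being male knockout replicate 1. On those 3 arrays the raw spot median was 27.5 to 34, beside a local background of 21 to 22. For comparison between arrays, log2 of the signal was taken minus the 75th percentile of that log2 signal over the array's probes. On that scale Adgrf1 averaged -3.98 ± 1.01 in male knockout, 0.60 ± 0.07 in male wild type, -6.57 ± 0.15 in female knockout and 0.00 ± 0.99 in female wild type (SD, n = 2 each). The knockout minus wild-type difference was -4.58 ± 0.58 in males and -6.58 ± 0.58 in females (log2, SE of the limma fit). The difference in males corresponds to 23.9-fold, a value that includes the dim male knockout replicate 2. With that array left out the difference was -3.86 log2. In females no fold is given, because neither knockout array was well above background. In whole liver, fewer cells of a type and less RNA per cell cannot be told apart.

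Pcp4l1, the IQ-motif protein, was measured well above background on all 8 arrays. Its brighter probe gave 33.4 and 28.6 on the male knockout arrays, against 259 and 76.7 on the male wild-type arrays. In females it gave 58.3 and 59.8 in knockout and 1503 and 649 in wild type. Knockout arrays lay below wild-type arrays in both sexes, and female wild-type livers stood above all other groups. Group means were -2.13 ± 0.15 in male knockout, 0.01 ± 1.04 in male wild type, -1.29 ± 0.00 in female knockout and 2.68 ± 0.91 in female wild type (log2, SD, n = 2 each). Knockout minus wild type was -2.13 ± 0.57 in males, 4.38-fold, and -3.98 ± 0.57 in females, 15.8-fold (log2, SE). Replicate 1 was 3.38 times as bright as replicate 2 in male wild type. Without replicate 1 of that group the male difference was -1.40, and without replicate 2 it was -2.87.

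The other Pcp4l1 probe moved less. It gave 56.0 and 45.6 on the male knockout arrays, against 65.9 and 54.3 on the male wild-type arrays. In females it gave 57.1 and 57.8 in knockout and 164 and 84.0 in wild type. On the scaled values knockout was below wild type in both sexes, by -0.18 log2 in males (knockout -1.42, wild type -1.23) and by -0.94 log2 in females (knockout -1.34, wild type -0.39). Both probes thus had the same direction in each sex and their highest group mean in female wild type, but sizes that differed. Which transcripts each probe reads was not tested, and no level of one is set against the other.

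**Figure D1:**
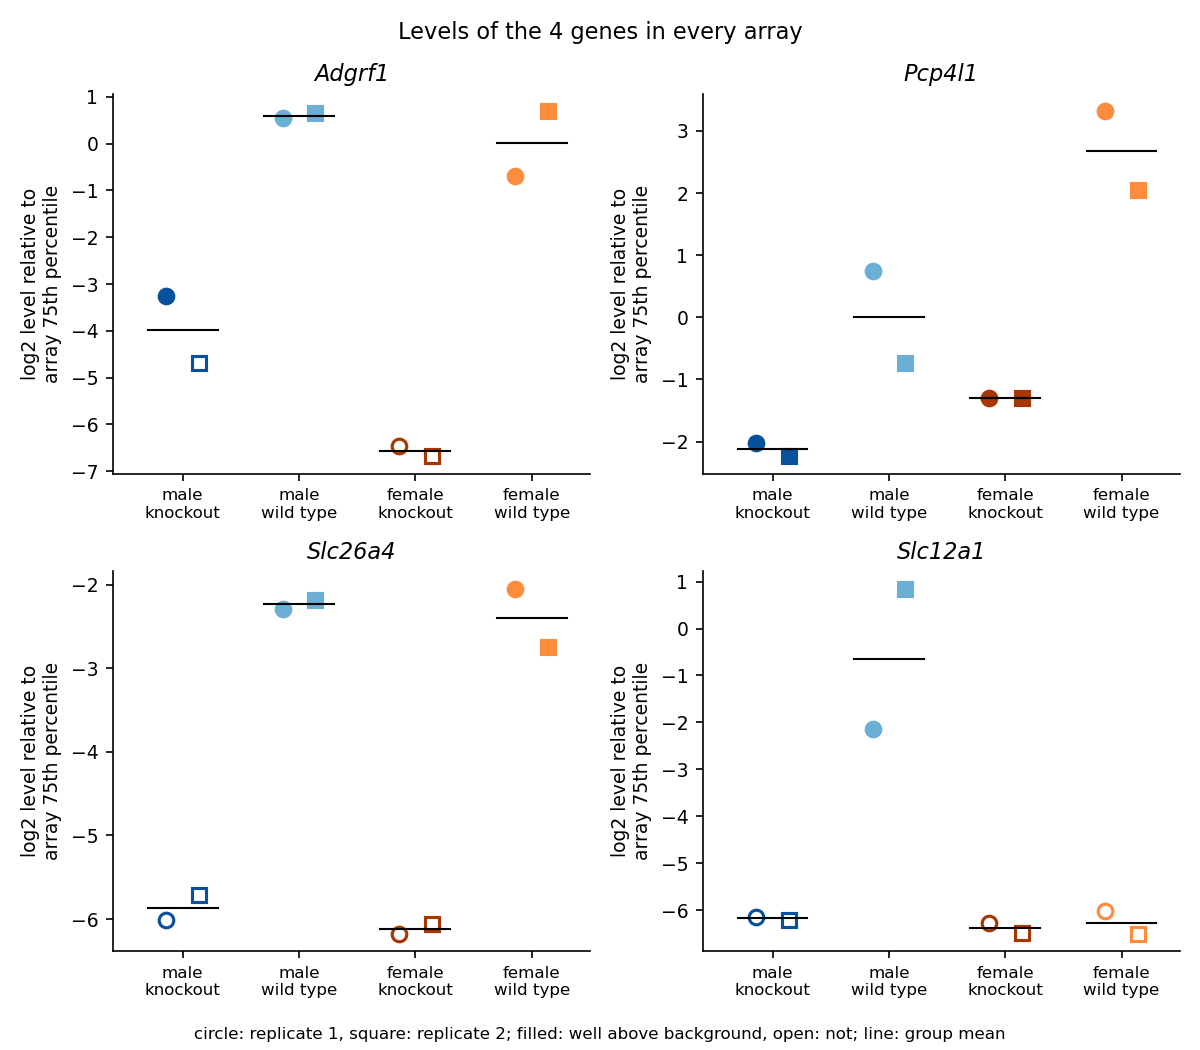
Level of each of the 4 genes on every array (y axis, log2 relative to the array's 75th percentile) by group (x axis), with circles for replicate 1, squares for replicate 2, open symbols where the probe was not well above background and a line at the group mean. All open symbols but 2 lie in knockout groups, and the exceptions are the 2 female wild-type arrays of Slc12a1.

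**Figure D2:**
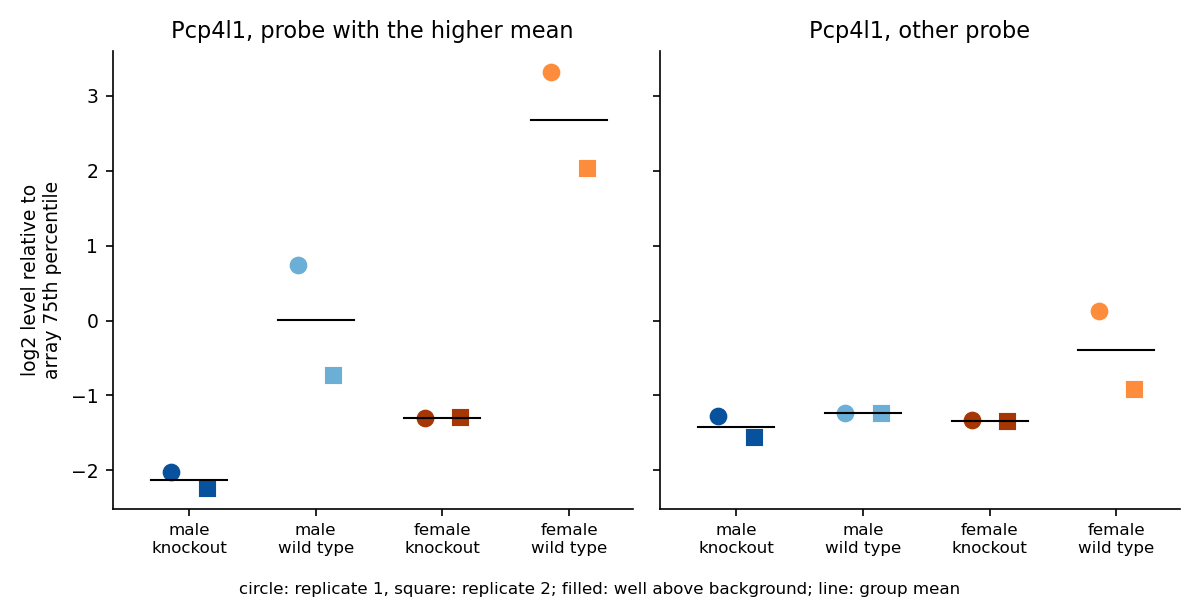
Level of Pcp4l1 on every array by group for the brighter probe (left) and the other probe (right), on the same log2 scale relative to the array's 75th percentile, with a line at the group mean. The knockout minus wild-type difference in females is -3.98 for the brighter probe and -0.94 for the other.

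Slc26a4, the pendrin gene, was well above background on the 4 wild-type arrays and on none of the 4 knockout arrays. Its processed signal was 2.09 and 2.56 on the male knockout arrays, against 31.6 and 28.1 on the male wild-type arrays. In females it was 1.98 and 2.20 in knockout and 36.3 and 23.4 in wild type. The wild-type arrays of both sexes overlapped, and so the pattern was a step between genotypes with similar levels in both sexes. The wild-type signal was itself low: the raw spot median was 48 to 57 there, and 28 to 31.5 on the knockout arrays, beside a local background of 20.5 to 23. Group means were -5.86 ± 0.21 in male knockout, -2.24 ± 0.08 in male wild type, -6.12 ± 0.09 in female knockout and -2.40 ± 0.50 in female wild type (log2, SD, n = 2 each). The difference between knockout and wild type was -3.63 ± 0.24 in males and -3.72 ± 0.24 in females (log2, SE), with both knockout groups at background. For that reason no fold is given in either sex.

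Slc12a1, the kidney cotransporter, was well above background on 2 arrays, both of male wild type, and so could be tested through that group alone. Its processed signal was 1.91 and 1.83 on the male knockout arrays, against 35.1 and 230.0 on the male wild-type arrays. In females it was 1.84 and 1.64 in knockout and 2.31 and 1.73 in wild type. The 6 arrays of the other groups had a raw spot median of 26 to 30.5, beside a background of 21 to 22, and their groups have no order among themselves. Male wild-type replicate 2 was 6.56 times as bright as replicate 1, the widest replicate gap among the 4 genes. Group means were -6.18 ± 0.04 in male knockout, -0.65 ± 2.12 in male wild type, -6.38 ± 0.14 in female knockout and -6.27 ± 0.34 in female wild type (log2, SD, n = 2 each). Knockout minus wild type was -5.53 ± 0.88 in males (log2, SE), and no fold is given because knockout was not well above background. Dropping replicate 1 of male wild type gave -7.03, and dropping replicate 2 gave -4.03. In females the difference of -0.12 ± 0.88 compares groups that were both not well above background, so no fold is given.

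Both knockout arrays lay below both wild-type arrays for 4 of the 4 genes in males and for 3 of the 4 in females. Among all 26551 tested, 34.7% showed this in males and 27.6% in females, and since the genes were picked on this contrast nothing is read from their counts. The levels within each gene were ordered as follows. Adgrf1 was highest in male and female wild type, which overlapped and differed by 0.59 log2, less than the spread between the female arrays, then came male knockout and last female knockout. By its brighter probe, Pcp4l1 ran from female wild type through male wild type and female knockout to male knockout, with no neighbouring groups overlapping. The step from male wild type to female knockout, 1.30 log2, was 1.25 times the larger SD of that pair. Slc26a4 had overlapping wild-type groups on top, and Slc12a1 had male wild type above the rest.

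The genes differed from each other in how the sexes compared, and these values are likewise a description. In wild type, male minus female was 0.59 for Adgrf1, -2.68 for Pcp4l1, 0.16 for Slc26a4 and 5.62 for Slc12a1 on the log2 scale. The values for Pcp4l1 are those of its brighter probe, which was thus 6.40-fold lower in wild-type males than in wild-type females. Its other probe gave -0.84 log2 there, 1.79-fold, and -0.08 log2 in knockout, where the arrays of the sexes overlapped. Slc12a1 was well above background in wild-type males and not in wild-type females, so no fold is given. In knockout, male minus female was 2.59 for Adgrf1, with only male knockout replicate 1 well above background, and -0.83 for Pcp4l1. Slc26a4 and Slc12a1 were not well above background in either sex of the knockout. The knockout effect in males minus that in females was 2.002 ± 0.83 for Adgrf1, 1.85 ± 0.81 for Pcp4l1, 0.09 ± 0.34 for Slc26a4 and -5.41 ± 1.24 for Slc12a1 (log2, SE). For Adgrf1, Slc26a4 and Slc12a1 these fitted values rest on groups that were not well above background.

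Male minus female averaged over both genotypes was tested for Pcp4l1, Adgrf1 and Slc26a4, of which Pcp4l1 alone was well above background in all groups. The brighter probe of Pcp4l1, well above background on all 8 arrays, differed by -1.75 ± 0.40 (log2, SE, n = 4 a sex, limma adjusted p = 0.142 over 26551, unadjusted p = 0.00468). Adgrf1 differed by 1.59 ± 0.41 (limma adjusted p = 0.164, unadjusted p = 0.00822) and Slc26a4 by 0.21 ± 0.17 (adjusted p = 0.586), both with knockout values that were at or near background. None of these 3 passed 0.05, while 0.55% of all tested did (0.32% higher and 0.23% lower in males). Slc12a1 had 2.91 ± 0.62, a value that comes from the same 2 male wild-type arrays as its fall and the same filter, so it is a description and no p is given.

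The genes whose pattern over the 8 arrays was most like each of the 4 were ranked by the root mean square difference of log2 values, each centred on its own mean, among 15481 genes with a symbol. Being nearest includes being lower in knockout, so the values that follow carry no test. Nearest to Adgrf1 were Cyp26b1, which degrades retinoic acid (1.18), the terminal complement genes C8b (1.28) and C9 (1.34), Ociad2 (1.37) and the beta-3 adrenergic receptor Adrb3 (1.45). Cyp26b1 was 40.3-fold lower in knockout in males and 14.1-fold in females. C8b was 22.2-fold lower in males and 8.50-fold in females. In females the fitted fall of Adgrf1 ranked 1 among all 26551 tested, with knockout not well above background. That the 5 fell less there is therefore not a result.

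Nearest to Pcp4l1 were Ildr2 (0.52), the lysophospholipid transporter Mfsd2a (0.52), 1810053B23Rik (0.64), the fatty acid hydroxylase Cyp4a14 (0.68) and the adhesion receptor Adgrg2 (0.73). Mfsd2a was 3.60-fold lower in knockout in males and 16.5-fold in females. It was also 5.59-fold lower in wild-type males than in wild-type females, beside 6.40-fold for the brighter probe of Pcp4l1. Nearest to Slc26a4 were the vasopressin receptor Avpr1a (0.54), Ociad2 (0.58), the adenosine receptor Adora1 (0.59), Adrb3 (0.63) and the ectoenzyme Enpp3 (0.63). Avpr1a was 7.07-fold lower in knockout in males and 7.01-fold in females.

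Nearest to Slc12a1 were the calpain Capn8 (0.60), the acetyltransferase-family gene Nat8 (0.77), Gm4956 (0.83), the complement gene C6 (1.01) and Nat8f6 (1.09). Nat8 was 52.4-fold lower in knockout in males and 1.39-fold in females. C6 was 15.2-fold lower in males and 1.36-fold in females, and in wild type it was 13.6-fold higher in males than in females. Capn8 differed by -4.53 ± 0.40 in males (log2, SE), where knockout was not well above background. It was not well above background in either group of females. Between the 4 genes themselves the difference was 1.20 for Pcp4l1 with Slc26a4, 1.44 for Adgrf1 with Slc26a4, 2.11 for Slc26a4 with Slc12a1, 2.26 for Adgrf1 with Pcp4l1, 2.58 for Adgrf1 with Slc12a1 and 3.17 for Pcp4l1 with Slc12a1.

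**Figure D3:**
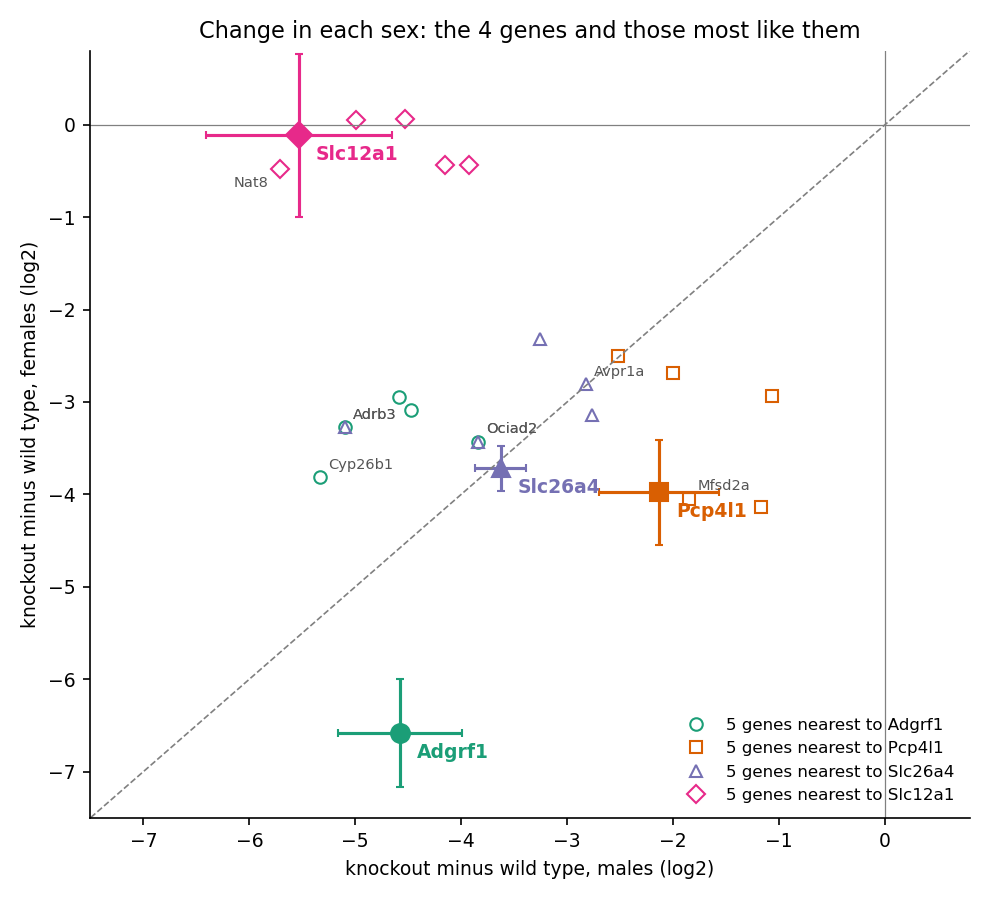
Knockout minus wild type in males (x axis) and females (y axis), both log2, for the 4 genes (filled, bars are SE) and the 5 genes nearest to each (open, same colour and shape), with the dashed line at equal change. Slc12a1 and its 5 nearest genes lie along 0 in females, Slc26a4 lies by the dashed line, and Adgrf1 and Pcp4l1 lie below it.

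The relatives of the 4 genes mostly did not pass the test, which over all genes called 10.7% in males (5.77% higher, 4.93% lower in knockout) and 5.93% in females (3.48% higher, 2.45% lower). Of 29 other adhesion receptors 20 were tested; 1 rose and 1 fell in each sex, with a median of 0.22 in males and -0.04 in females (log2; all genes -0.04 and 0.00). Celsr1, a planar cell polarity cadherin, rose by 1.95 ± 0.39 in males (adjusted p = 0.0305, limma) and 2.48 ± 0.39 in females (0.0222). Adgra3 fell by 0.71 ± 0.17 in males (adjusted p = 0.0486). In females Adgrg2 was the 1 that fell, with -2.94 ± 0.45 (log2, SE). It was well above background on the 2 female wild-type arrays and no others, so it entered the test through the group where it was high. Adgrf5, which neighbours Adgrf1 on chromosome 17, differed by -0.21 in males and -0.22 in females (adjusted p = 0.432 and 0.405), and Adgrf2 and Adgrf4 were never well above background.

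Of 24 genes of calmodulin, its small regulators and its kinases 22 were tested, with 2 up and 1 down in males and 1 up and 1 down in females, and medians of -0.05 and 0.01. Camkk2, a kinase upstream of AMPK, rose by 2.38 ± 0.18 in males (adjusted p = 0.00129, limma) and 1.85 ± 0.18 in females (0.00522). Camk2b rose by 2.81 ± 0.52 in males (0.0256), and the calcineurin inhibitor Rcan2 fell by 2.91 ± 0.48 in females (0.0268). Pcp4, the gene Pcp4l1 is named after, differed by -0.44 ± 0.10 in males (adjusted p = 0.0440) and 0.42 ± 0.10 in females (0.0665); it is named for its kinship and its values were seen first.

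Of 10 other SLC26 anion transporters 5 were tested, and 0 passed in either sex by limma. In each sex 1 had an unadjusted p under 0.05, as did 7227 of all 26551 tested in males and 6612 in females. The SLC26 medians were -0.26 in males and -0.28 in females. Slc26a6, an anion exchanger, had -0.62 ± 0.19 in males and -0.50 ± 0.19 in females (adjusted p = 0.104 and 0.185), and Slc26a3, which lies near Slc26a4 on chromosome 12, was never well above background. Of 8 other SLC12 cotransporters 7 were tested. Slc12a7, a potassium and chloride cotransporter, fell by 0.97 ± 0.10 in males (adjusted p = 0.00372, limma) and 0.57 ± 0.10 in females (0.0293). Slc12a2, the widely expressed cotransporter with the same ions as Slc12a1, had -0.25 and -0.23 (adjusted p = 0.240 and 0.294). The SLC12 medians were -0.16 in males and -0.21 in females.

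The WNK kinases and their SPAK partners phosphorylate the SLC12 cotransporters. Of 10 listed, 8 were tested, with medians of -0.14 in males and -0.16 in females. Wnk2 rose by 2.39 ± 0.18 in males (adjusted p = 0.00138, limma) and 2.75 ± 0.18 in females (0.0013). Wnk4 had -3.63 ± 0.64 in males (limma adjusted p = 0.0218), where knockout was not well above background, and -1.38 ± 0.64 in females (0.245). Of 22 other chloride and bicarbonate transporters 18 were tested: Ano10 rose by 0.48 in males, though it had -0.054 with its probes averaged, and Clcn2 fell by 0.46 (adjusted p = 0.0490 and 0.0405), and the bicarbonate cotransporter Slc4a4 fell by 0.82 in females (0.0436). Among the relatives named here, the calls on Camkk2 and Wnk2 in both sexes and on Slc12a7 in males held with each array left out in turn and in every other setting tried, and the others did not (Pcp4 was not included in this check).

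**Figure D4:**
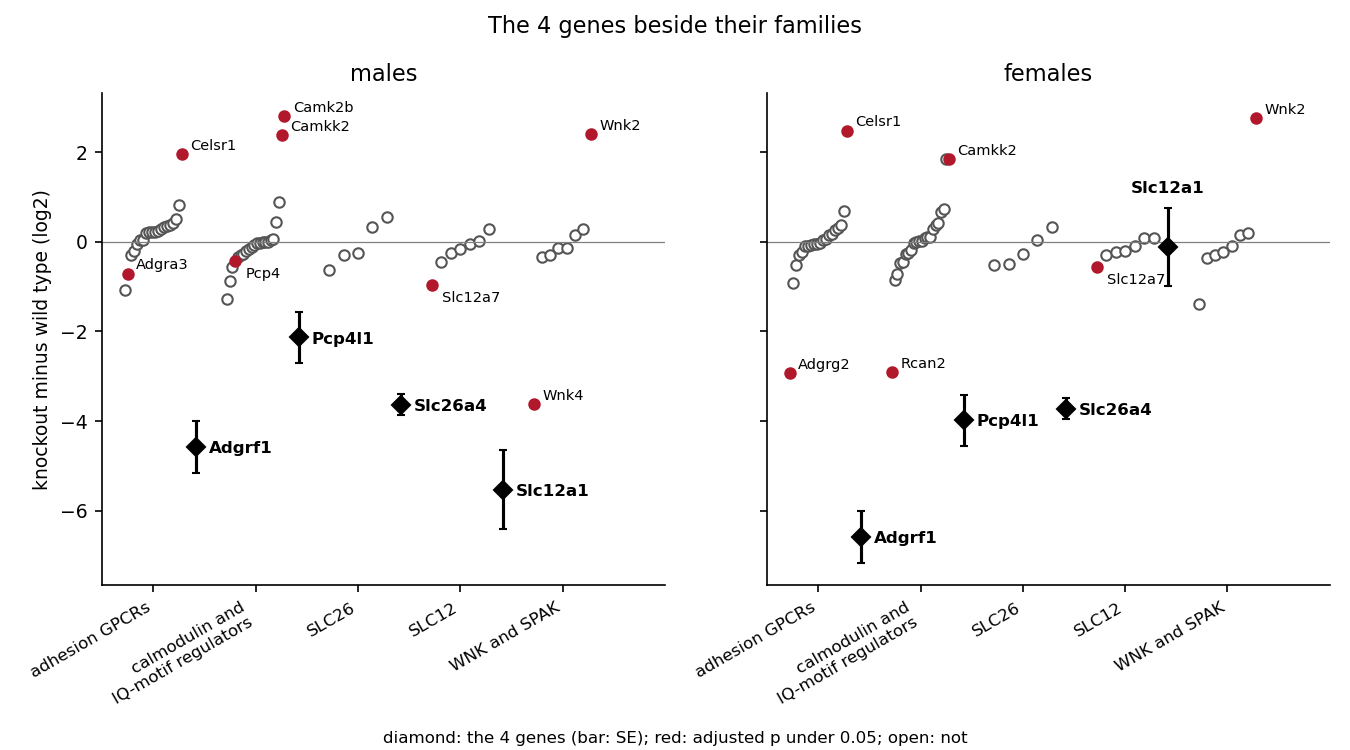
Knockout minus wild type (y axis, log2) in males (left) and females (right) for the 4 genes (diamonds, bars are SE) and the tested members of 5 gene lists (circles, x axis; red where the limma adjusted p was under 0.05). Adgrf1, Pcp4l1 and Slc26a4 lie below every tested member of their own lists in both sexes, and Slc12a1 does in males. The 4 were picked for this fall, so their place below their relatives is not a result. Knockout was not well above background for Slc26a4 and Slc12a1, nor for Adgrf1 in females. Wnk4 is the lowest of the WNK and SPAK list in both sexes.

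Of the 24 genes that stand within 3 places of the 4 in the gene table, 11 were tested. An unadjusted limma p under 0.05 was found for 7227 of all 26551 tested in males and for 6612 in females. In males 0 of the 11 passed by limma, and 0 had an unadjusted p under 0.05. In females 4 had an unadjusted p under 0.05, and 1 passed. It was Nr1i3, the nuclear receptor CAR, next to Pcp4l1 on chromosome 1, which fell by 1.03 ± 0.19 in females (adjusted p = 0.0368) and differed by 0.14 ± 0.19 in males (0.685). Dut, the tested neighbour of Slc12a1 on chromosome 2, had -0.19 in males and 0.16 in females (0.320 and 0.404).

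Markers of the organs these genes are best known from were set beside them. Of 12 markers of the thick ascending limb, where Slc12a1 acts, 5 were tested, and Umod, Kcnj1, Bsnd and Cldn16 were well above background on no array, those of male wild type included. Egf rose by 2.31 ± 0.25 in males and 2.59 ± 0.25 in females (limma adjusted p = 0.00482 and 0.00547). Levels were summed in multiples of the array's 75th percentile over its spots, which was 180 to 219. The sum of the 5 was 3.07 to 3.40 in male knockout and 3.81 to 4.17 in male wild type. In females it was 3.04 to 4.07 in knockout and 2.60 to 3.04 in wild type. Of 11 intercalated cell markers 5 were tested and 0 passed by limma (1 at an unadjusted p under 0.05 in each sex), though Slc4a9 fell by 1.27 in females with its probes averaged (adjusted p = 0.0404), and the proton pump subunits Atp6v1b1 and Atp6v0a4 were never well above background. Among the 5, Insrr has a second probe, with a lower mean over the 8 arrays, that was not well above background in wild type. Its knockout minus wild-type difference was 7.41 log2 in males and 7.21 in females, against 1.03 and 0.52 log2 for the probe that stood for the gene. With 1 array left out at a time, Insrr ranged over 0.97 to 7.82 log2 in males and 0.29 to 7.24 in females. The probe of highest mean was not the same in all these fits, so the count of 0 depends on the probe used. Of 10 thyroid markers 1, Iyd, was tested; Tg and Slc5a5 were not well above background anywhere. Of 8 Purkinje cell markers 6 were tested. Car8 fell by 0.82 in males and 0.90 in females (limma adjusted p = 0.0268 and 0.0297). Cbln1 had -0.90 ± 0.20 in males (0.0431), where knockout was not well above background.

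Markers of the liver's own cells were set beside them too. The summed level of 16 hepatocyte markers was 6450 to 6596 in male knockout, 5996 to 6104 in male wild type, 5855 to 6647 in female knockout and 5653 to 5763 in female wild type. Ttr fell by 0.50 in males and 0.56 in females (limma adjusted p = 0.0312 and 0.0331), and Hpd rose by 0.62 in females (0.0458). The 11 endothelial markers summed to 83.2 to 88.5 in male knockout, 56.5 to 59.3 in male wild type, 82.1 to 84.0 in female knockout and 70.6 to 75.6 in female wild type. Vwf rose by 2.63 in males and 1.15 in females (limma adjusted p = 0.000669 and 0.0176), and Stab2 by 0.55 in males (0.0291). The 10 lymphocyte markers summed to 5.64 to 6.05 in male knockout, 4.42 to 4.93 in male wild type, 5.85 to 6.45 in female knockout and 4.78 to 4.84 in female wild type, and Cd79b and Ms4a1 were among those that rose in males (adjusted p = 0.00332 and 0.0143). Cd79b rose in females too, by 0.77 (0.0323). Of 11 stellate cell and fibroblast markers 4 rose in males, Col1a1 by 1.05, Col3a1 by 0.82, Pdgfrb by 0.67 and Colec11 by 0.57, and 1, Lrat, fell in females by 1.25 (0.0407). Of 10 macrophage markers 0 passed by limma in either sex, and 0 had an unadjusted p under 0.05. Of 10 cholangiocyte markers 8 were tested, and 1 of the 8, Prom1, passed by limma in each sex. Their medians were 0.24 in males and 0.16 in females (log2). Their summed level was 5.19 to 5.88 in male knockout and 4.05 to 4.61 in male wild type. In females it was 5.56 to 6.38 in knockout and 5.37 to 6.93 in wild type. Prom1 rose by 4.22 in males, where wild type was not well above background, and by 2.96 in females (limma adjusted p = 0.000895 and 0.00542). The part of these cell types in the levels of the 4 genes was not tested.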

How the data were processed

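Agilent one-colour arrays were read from the deposited scanner files. Per the file headers, the deposited processed signal is an intensity after background subtraction by Feature Extraction 11.5.1.1; version 9.1.3.1 stands in the submitters' processing notes. The files also hold median intensities of spot and background, per the file headers. The deposited table of log2 values equalled the log2 processed signal minus a constant of 6.99 to 7.30 per array, within 0.01 for 99.98% of probes; it was not centred per gene, its column medians were -3.25 to -3.13, and its direction is that of the signal. RNA was extracted with Trizol and labelled with Cy3, per the labels' protocols.

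Control spots and the 55 to 139 spots an array that the scanner software marked as uneven or outlying were left out; 0 were saturated. Log2 signal minus the array's 75th percentile was used. Of 56605 probes, 32994 were named through RefSeq (GRCm38.p6); 33580 were kept, those well above background on both arrays of any 1 group, and the probe of highest mean stood for its gene, for 5331 genes with several. With limma 3.58.1 (R 4.3.3), 4 group means were fitted (4 residual and 2.08 prior degrees of freedom), with Benjamini-Hochberg adjustment over 26551 at 0.05; the median SE was 0.162. The tests were checked on simulated data. No fold is given where the lower group was not well above background on any array. Python 3.11.15, pandas 2.3.3, numpy 2.4.6 and matplotlib 3.10.9 were used.

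The 4 genes and the 16 lists were chosen with earlier results of these data known. Named genes were the 4, Bcl6, the 5 nearest patterns of each, from each list up to 3 with the lowest adjusted p, and tested neighbours within 3 places; others named are the well-known markers not well above background, other genes of a list that passed, and relatives of the 4. Alternatives were normexp (offset 50, on the median signal, since the files used hold no mean signal), median or quantile scaling, other probe filters, averaging probes per gene, the deposited log2 table, 1 sex alone, a replicate block and leaving out each array. The array was annotated on mm9, so coordinates are given for promoter windows alone. Some listed or neighbouring genes are not reported here.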

Additional observations from a re-analysis of the deposited data

How the results depend on the processing

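With n = 2 arrays a group, the number of arrays limits the precision, and signals near background leave some differences without a fold. Normexp with an offset of 50 shrank differences of dim probes by construction: knockout minus wild type became -1.97 (Adgrf1), -1.17 (Pcp4l1), -0.41 (Slc26a4) and -1.34 (Slc12a1) in males, and -1.86 (Adgrf1), -3.13 (Pcp4l1) and -0.42 (Slc26a4) in females. The mean of both Pcp4l1 probes gave -1.16 in males and -2.46 in females. The mean of a gene's probes also turned Ano10 in males to -0.054 and Slc4a9 in females to -1.27, where it passed (adjusted p = 0.0404), against 0.39 from the single probe, which had not. With at least 4 of 8 arrays required well above background, Slc12a1 was not tested and has no value.

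Leaving out 1 array at a time, knockout minus wild type in males ranged over -5.29 to -3.86 for Adgrf1, -2.87 to -1.40 for Pcp4l1, -3.78 to -3.48 for Slc26a4 and -7.03 to -4.03 for Slc12a1. In females it ranged over -7.28 to -5.88, -4.62 to -3.34, -4.07 to -3.37 and -0.36 to 0.13, in the same order. Male minus female averaged over genotypes ranged over 1.24 to 1.95 for Adgrf1, -2.12 to -1.39 for Pcp4l1, 0.03 to 0.38 for Slc26a4 and 2.16 to 3.66 for Slc12a1, the last with no test, since its other groups were at background.

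Counts of genes called were 2841 in males, 1574 in females and 146 for the sexes averaged over genotypes. With no filter on dim probes, which tests more genes, they were 1225, 522 and 42. Normexp gave 2634 in females and 263 for the sexes, and female groups fitted alone, with fewer arrays, gave 361. Over the left-out arrays the counts were 1077 to 2911, 562 to 1690 and 120 to 807; the highest sex count came without female wild-type replicate 2, the lowest male count without male knockout replicate 2 and the lowest female count without female knockout replicate 1. Same-numbered replicates did not deviate together (correlations of -0.0019 to 0.1016), and a replicate block in the fit gave counts of 2468, 1252 and 107. Of 22 calls on named genes in males 7 held in every left-out fit and every other setting (Camkk2, Cd79b, Egf, Prom1, Slc12a7, Vwf and Wnk2), and of 15 in females 4 (Camkk2, Egf, Prom1 and Wnk2).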
